A study of Mus musculus with 6 samples.

Results

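The genes described here build the cilium. They are 63 of the 23478 genes of the deposited count table, chosen by symbol: 24 genes of the primary cilium (names starting with Ift, Bbs or Tctn) and 39 genes of the motile axoneme (dynein arm and dynein assembly genes, tektins, radial spoke genes and genes named Spag). No row had a name of the Cfap pattern. The tissue was mouse trachea at embryonic day 13.5, from which 2 populations were sorted, with 3 libraries of muscle, sorted by the eGFP reporter driven by gamma smooth muscle actin (gamma SMA), and 3 of epithelium, sorted by an antibody to the surface protein Epcam. All 6 libraries are titled as controls and come from embryos with floxed Bmp4 alleles and the reporter (Bmp4 f/f; gamma SMA eGFP). The labels name no Cre. They do not say whether libraries of one population came from separate embryos, so p-values measure only the spread between these libraries. The epithelium can hold several cell types, and fewer cells of a type and less RNA per cell cannot be told apart in such bulk samples.

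A cilium is a microtubule rod, the axoneme, that grows from a basal body under a sheath of membrane. Most cell types can carry a single immotile primary cilium, which receives signals such as hedgehog. It is built by intraflagellar transport (IFT): IFT-B complexes move cargo outward, IFT-A complexes bring it back, the BBSome moves membrane proteins, and tectonic proteins sit in the transition zone at the cilium's base. The multiciliated cells of the mature airway epithelium carry many beating cilia, whose axonemes also hold dynein arms, radial spokes and a central pair. Factors of the RFX family bind the X-box and regulate ciliary genes of both kinds, and Foxj1, a forkhead factor, regulates motile ones.

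Promoter sequences show which members carry the X-box near their start. The RefSeq table of GRCm38.p6, with 250 bases before to 50 after each gene's start, held 56 of the 63 members. Spag9, Tekt1 and Tekt2 had more than one start, and a gene was counted if any of its windows held the motif. The X-box was searched on both strands in a strict form, with each of its fixed bases required. It was found in 5 of 21 primary cilium promoters (23.8%) and in 6 of 35 motile axoneme promoters (17.1%), beside 300 of 16647 promoters (1.80%) of all table genes. The tectonic genes held it in 3 of 3 promoters, and the dynein heavy chain genes in 0 of 11. These counts depend on the form: with 1 fixed base allowed to differ, a form chosen after seeing the data, 8 of 11 dynein heavy chain promoters matched, as did 10 of 21 primary cilium promoters (47.6%), 19 of 35 motile axoneme promoters (54.3%) and 12.8% of all. Dnah1, Dnah5 and Dnah8 were the dynein heavy chain genes without a match in either form. The forkhead core was searched on both strands as TGTTTAC, with TATTTAC as another form and TGTTTAT as the third. Any of these was found in 1 primary cilium promoter (4.76%), in 5 motile axoneme promoters (14.3%) and in 1716 (10.3%) of all. The strict X-box matches of the members are printed here because they span both classes; all bases shown belong to the match.
Tctn1: GTTGCCCGGGCAAC
Tctn2: GTTACCATGGCTAC
Tctn3: GTTGCCAGGTAAC
Ift57: GTTGCCGTGGTGAC
Ift57: GTTGCCTGGTAAC
Bbs1: GTTGCCAAGGCGAC
Dnaic1: GTTGCTGGGTAAC
Dnaic2: GTTGCTAGGCAAC
Dnaaf2: GTTACTATGGCAAC
Rsph3b: GTTGCTCGGCAAC
Tekt2: GTTGCTCGGCAAC
Spag16: GTTGCCGTAGTAAC

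The promoters of 4 members are given in full. Ift20 and Dnah1 were the members that differed between the populations and had no match to the strict X-box or to the forkhead core. Ift57 had 2 X-box matches, more than any other member, and Dnaic1 is the motile gene with the largest fitted fold change, which did not pass the test. Capitals mark the strict X-box. On GRCm38.p6 the windows are chr11:78536111-78536410 (plus strand) for Ift20, chr14:31323847-31324146 (minus strand) for Dnah1, chr16:49699044-49699343 (plus strand) for Ift57 and chr4:41569544-41569843 (plus strand) for Dnaic1. A match is a description of the letters and not a bound site.
Ift20: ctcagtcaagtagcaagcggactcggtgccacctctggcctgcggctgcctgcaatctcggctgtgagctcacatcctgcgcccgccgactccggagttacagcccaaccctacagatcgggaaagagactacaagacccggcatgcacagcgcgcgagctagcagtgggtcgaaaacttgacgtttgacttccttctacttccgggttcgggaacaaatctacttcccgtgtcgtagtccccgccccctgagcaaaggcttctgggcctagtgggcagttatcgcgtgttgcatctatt
Dnah1: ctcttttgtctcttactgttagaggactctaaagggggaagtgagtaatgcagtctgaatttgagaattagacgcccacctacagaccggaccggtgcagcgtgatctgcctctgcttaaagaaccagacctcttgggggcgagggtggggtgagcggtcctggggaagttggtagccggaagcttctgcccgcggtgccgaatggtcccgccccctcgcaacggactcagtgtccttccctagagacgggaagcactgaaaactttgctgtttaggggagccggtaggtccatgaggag
Ift57: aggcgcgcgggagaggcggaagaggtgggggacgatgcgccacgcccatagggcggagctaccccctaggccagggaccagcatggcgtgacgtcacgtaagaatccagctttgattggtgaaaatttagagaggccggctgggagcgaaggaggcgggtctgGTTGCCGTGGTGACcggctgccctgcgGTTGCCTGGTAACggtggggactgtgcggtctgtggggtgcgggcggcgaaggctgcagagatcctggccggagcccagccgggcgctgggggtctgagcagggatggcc
Dnaic1: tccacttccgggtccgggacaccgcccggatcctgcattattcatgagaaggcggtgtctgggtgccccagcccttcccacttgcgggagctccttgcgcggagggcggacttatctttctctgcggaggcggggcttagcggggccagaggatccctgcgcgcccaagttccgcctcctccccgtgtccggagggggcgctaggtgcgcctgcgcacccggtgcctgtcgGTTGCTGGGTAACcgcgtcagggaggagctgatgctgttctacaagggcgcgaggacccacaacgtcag

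Total counts ranged from 17686605 to 49352790 in muscle and from 11847432 to 54848820 in epithelium. Summed over 10 markers each, epithelial genes reached 14.2 to 28.9 CPM (counts scaled to library totals) in muscle against 3558 to 4768 in epithelium, and smooth muscle genes 4252 to 19046 against 49.6 to 122, in accord with both sort labels. The libraries differed in another way that crosses the groups. Olfactory and vomeronasal receptor genes, 1449 genes of sensory neurons, summed to 871 CPM by library total in the muscle library numbered 2. Both epithelial libraries numbered 2 and 3 were also high, at 1792 and 627, and the other 3 libraries had 6.47 to 36.5. These 3 high libraries are called the libraries with many receptor counts, and values of the members with and without them are given below. The same 3 libraries had the lowest total counts (11847432 to 25231394, against 31380201 to 54848820). More genes had a count in them (21811 to 22154, against 16979 to 18217), and their TMM scaling factors were higher (1.06 to 1.26, against 0.80 to 0.98). The part of these differences in the values below was not tested. Of 19375 genes tested between the populations, 2071 (10.7%) passed an adjusted p of 0.05 in edgeR's quasi-likelihood test, 1274 (6.58%) higher in muscle and 797 (4.11%) higher in epithelium. With scaling by library size alone the split turned, to 1441 genes higher in epithelium and 1047 in muscle. Log2 fold changes are epithelium minus muscle throughout, with a standard error (SE), and their median over all tested genes was 0.10.

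Genes of the primary cilium were detected in both populations, and few differed. All 24 had at least 1 CPM in every library, and 1 of 24 passed the test, beside 10.7% of all tested genes: Ift20 was 2.15-fold higher in muscle (95% interval 1.52 to 3.04, n = 3 per group). None was higher in epithelium in edgeR's test, where 3 of 24 had an unadjusted p under 0.05, beside 21.7% of all tested genes. DESeq2 and limma-voom likewise called Ift20 alone. Their median log2 fold change was -0.22 (range -1.10 to 0.25), with 18 below 0 and 6 above. The 95% interval lay within 2-fold in either direction for 13 of 24, compared with 33.4% of the 7733 tested genes in the same range of average expression, of which 17.5% passed the test. In 6 members, all higher in muscle, the groups did not overlap, while 26.9% of all tested genes had groups that did not overlap and 16.4% were of that kind with muscle higher. The median depended on scaling: it was 0.015 with library size alone, where the median of all genes moved from 0.10 to 0.33. Relative to all genes it was -0.32 under both scalings. Over all fits this relative value ran from -0.58 (without epithelium replicate 1) to 0.0074 (in the 3 libraries with few receptor counts). The 7733 genes in the same range of average expression had a median of -0.10 in the main fit. The primary cilium median was -0.016 in the 3 libraries with few receptor counts. Leaving out 1 library moved it from -0.42 (without epithelium replicate 1) to -0.066 (without epithelium replicate 3).

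**Figure D1:**
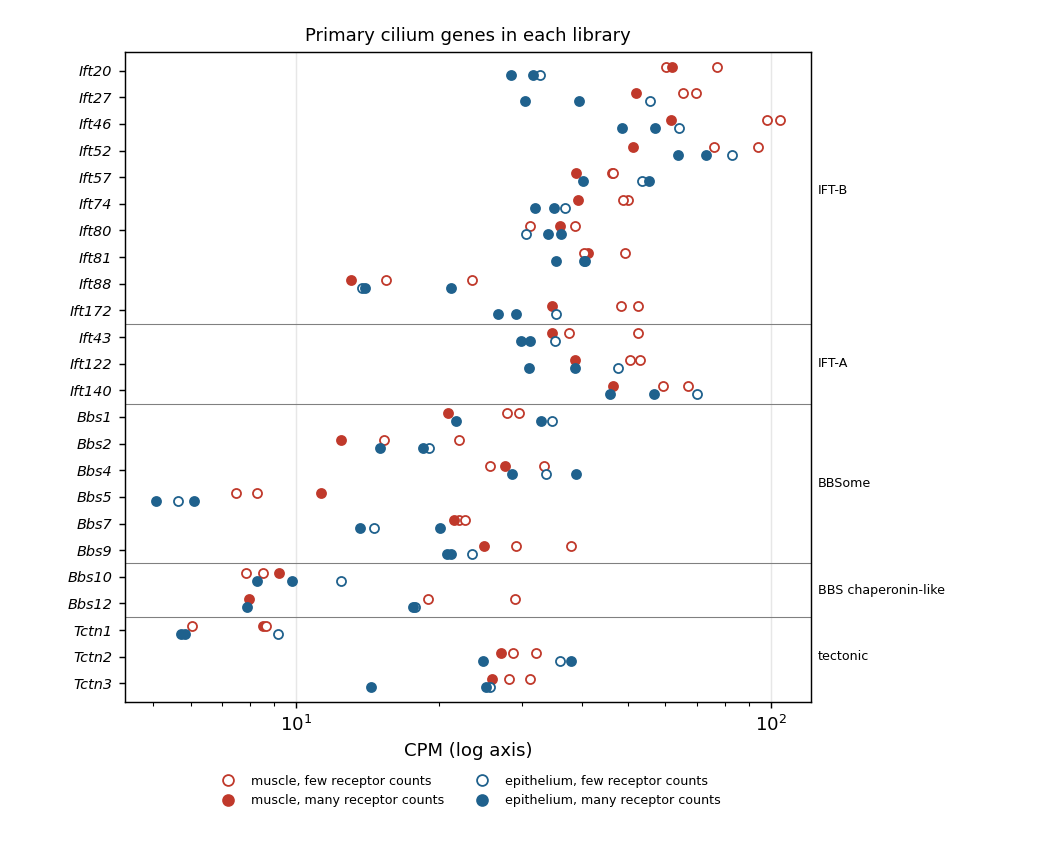
CPM of each primary cilium member (rows) in the 6 libraries on a log axis. Filled points are the 3 libraries with many receptor counts. For most members the muscle and epithelium points intermingle, and for Ift20 all muscle points, from 60.2 to 77.0, lie above all epithelium points, from 28.4 to 32.6.

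The IFT-B complex drives outward transport, and Ift20 is the subunit also known from the Golgi, where it takes part in sorting cargo for the cilium. Ift20 had 60.2, 62.1 and 77.0 CPM in muscle and 32.6, 28.4 and 31.6 in epithelium, here and below in the order of replicates 1 to 3, or 66.4 ± 9.19 against 30.9 ± 2.17 (SD, n = 3 each). The muscle libraries were thus all above the epithelial ones, with muscle replicate 3 the highest. Its log2 fold change was -1.10 ± 0.22 (SE; edgeR adjusted p = 0.013). The adjusted p ranged from 1.05e-05 to 0.119 over 17 alternative fits and passed in 14. It missed without muscle replicate 3 (0.0606), without epithelium replicate 3 (0.0847) and in the 3 libraries with few receptor counts (0.119), of which 1 is epithelium, where the log2 fold change was -0.89. Among the 4 libraries that share an identifier in the file headers (replicates 1 and 3) it was -1.02 (0.0256).

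The other IFT-B members chosen by symbol did not pass the test. Ift46, needed to bring outer dynein arms into the cilium, had 105, 61.7 and 98.1 CPM in muscle and 64.0, 48.7 and 57.0 in epithelium. Muscle replicate 2 fell below epithelium replicate 1, so the groups overlapped, and the log2 fold change of -0.64 ± 0.27 had an edgeR adjusted p of 0.199. Without that muscle library the adjusted p was 0.0443. Ift172, a large subunit of the complex, had 52.6, 34.7 and 48.3 CPM in muscle and 35.3, 29.0 and 26.6 in epithelium. Again muscle replicate 2 was the one library that overlapped with the epithelium, and the value was -0.58 ± 0.25 (edgeR adjusted p = 0.223). Ift27, a small GTPase of the complex, had 65.4, 52.2 and 69.5 CPM against 55.6, 30.5 and 39.5. Its log2 fold change of -0.57 ± 0.28 had an edgeR adjusted p of 0.281, and the groups overlapped between muscle replicate 2 and epithelium replicate 1.

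Ift74 and Ift81 form the pair that binds tubulin. Ift74 had 50.2, 39.4 and 48.8 CPM in muscle and 37.0, 31.9 and 35.0 in epithelium, with no overlap between the groups. Ift81 had 49.3, 41.3 and 40.5 CPM against 40.7, 40.4 and 35.3, and its groups overlapped. Neither passed: edgeR adjusted p was 0.352 for Ift74 (-0.41 ± 0.22) and 0.844 for Ift81 (-0.17 ± 0.22). Ift88, whose loss abolishes cilia in many mouse tissues, had 23.5, 13.1 and 15.5 CPM in muscle and 13.8, 21.2 and 14.0 in epithelium. Its highest values came from one library of each population, and the log2 fold change was -0.09 ± 0.33. Ift57, with the pair of X-boxes, had 46.4, 38.9 and 46.5 CPM against 53.5, 40.2 and 55.5. Among the 10 IFT-B members chosen by symbol it was the only one with a positive log2 fold change (0.18 ± 0.23), and its groups overlapped. Ift52 and Ift80 had log2 fold changes of -0.01 ± 0.27 and -0.07 ± 0.22.

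The IFT-A complex returns the trains to the cell body. Ift43 had 37.6, 34.6 and 52.6 CPM in muscle and 35.2, 29.8 and 31.1 in epithelium. Ift122 had 50.6, 38.8 and 53.2 CPM against 47.7, 31.0 and 38.8, and Ift140 had 66.9, 46.6 and 59.3 against 69.9, 45.8 and 56.8. The groups overlapped for each of these genes. For all 3 the 95% interval lay within 2-fold, and their log2 fold changes ran from -0.38 for Ift43 to near 0 for Ift140.

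The BBSome carries receptors into and out of the cilium. Bbs1, Bbs2 and Bbs4 had log2 fold changes above 0, at 0.19 ± 0.27, 0.08 ± 0.31 and 0.22 ± 0.24, and Bbs5, Bbs7 and Bbs9 below 0, at -0.68 ± 0.47, -0.46 ± 0.26 and -0.49 ± 0.25. None of the 6 passed edgeR's test, the smallest adjusted p being 0.312 for Bbs9, and none had an unadjusted p under 0.05. Bbs1 had 29.5, 20.9 and 27.8 CPM in muscle and 34.6, 21.7 and 32.8 in epithelium. Bbs2 had 22.0, 12.5 and 15.4 against 19.1, 18.5 and 15.0, and Bbs4 had 33.3, 27.6 and 25.6 against 33.6, 38.9 and 28.5. These groups overlapped. Bbs5 had 8.28, 11.3 and 7.48 CPM in muscle and 5.65, 5.08 and 6.12 in epithelium. Bbs7 had 22.1, 21.5 and 22.7 against 14.6, 13.6 and 20.1, and Bbs9 had 37.9, 24.9 and 29.0 against 23.5, 20.8 and 21.2. In these 3 genes every muscle library was above every epithelial library.

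Bbs10 and Bbs12 encode chaperonin-like proteins that help assemble the BBSome. Bbs10 had 7.86, 9.23 and 8.51 CPM in muscle and 12.4, 9.82 and 8.29 in epithelium (0.25 ± 0.39). Bbs12 had 29.0, 7.98 and 19.0 CPM against 17.9, 7.88 and 17.7 (-0.36 ± 0.49), and its low library in each population was replicate 2. The tectonic genes were also present in both populations. Tctn1 had 6.04, 8.53 and 8.64 CPM against 9.19, 5.74 and 5.85 (-0.16 ± 0.49), with 19.0% of its exon bases shared with the opposite-strand gene Hvcn1. Tctn2 had 32.1, 27.0 and 28.7 CPM against 36.0, 24.8 and 37.9 (0.17 ± 0.25). Tctn3 had 31.1, 25.8 and 28.1 CPM against 25.6, 14.4 and 25.2 (-0.38 ± 0.28), with the groups apart only by the small step from 25.6 to 25.8. None of these 5 genes passed edgeR's test or had an unadjusted p under 0.05.

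**Figure D2:**
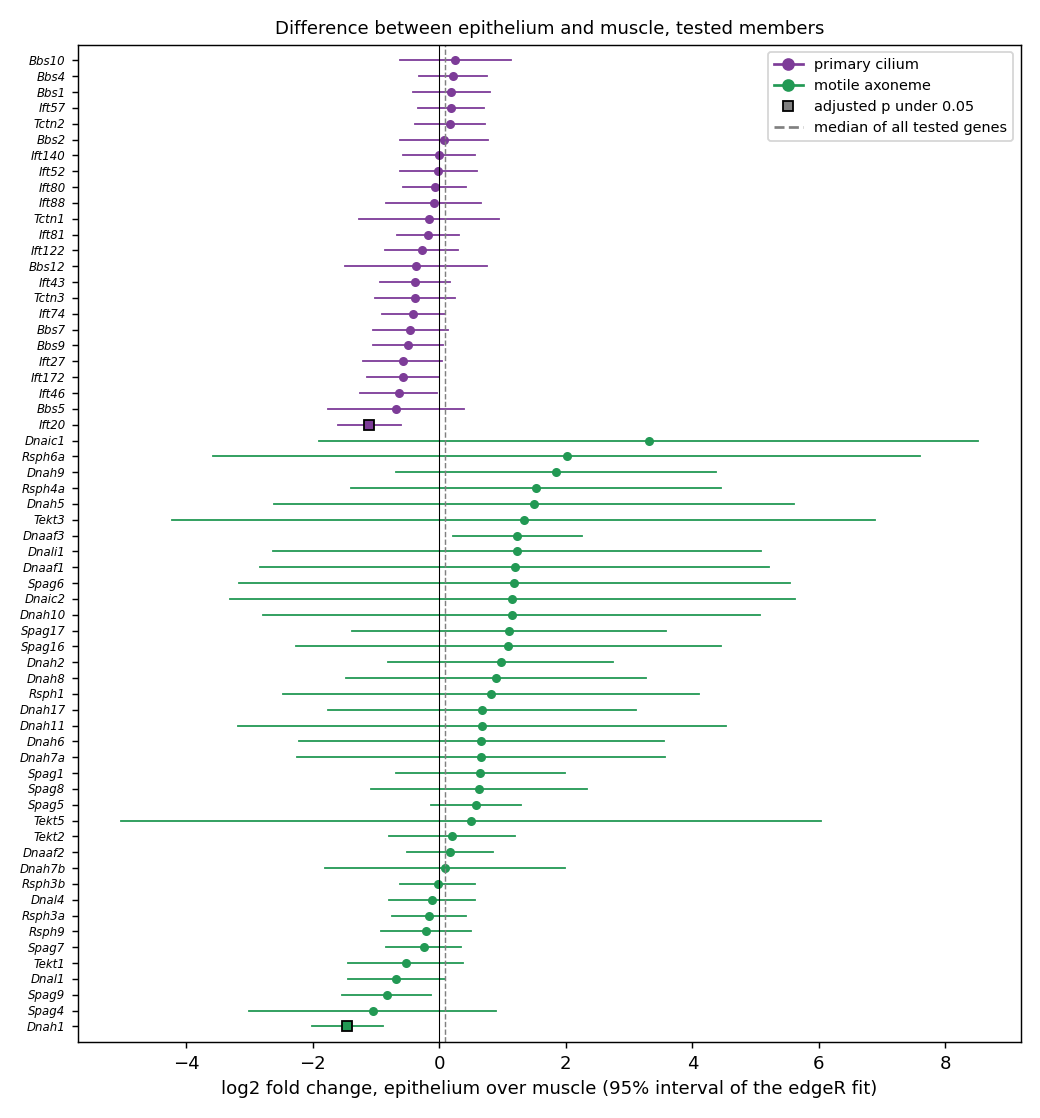
Log2 fold change (epithelium minus muscle) of the 62 tested members with 95% intervals, grouped by class and ordered by log2 fold change within each class. Squares mark the members past an adjusted p of 0.05, Ift20 and Dnah1, and the dashed line is the median of all tested genes (0.10). The median SE is 0.26 for primary cilium members and 1.06 for motile axoneme members, where it runs from 0.25 (Dnah1) to 2.47 (Rsph6a). For the 17 tested motile members not highest in the 3 libraries with many receptor counts, the median SE is 0.32.

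Among motile axoneme genes 1 differed between the populations, and many were highest in the same subset of libraries. Of 39, 38 were tested and 1 passed, again beside 10.7% of all tested genes: Dnah1 was 2.74-fold higher in muscle (95% interval 1.85 to 4.04). None was higher in epithelium in edgeR's test (3 of 38 had an unadjusted p under 0.05, beside 21.7% of all tested genes). DESeq2 called 1 gene there, Dnaaf3, and limma-voom 0. The median log2 fold change was 0.67 (range -1.45 to 3.31), with 28 above 0 and 10 below, but the median SE was 1.06, against 0.26 for the primary cilium genes. In 21 of 38 (55.3%) the 3 libraries with many receptor counts held the 3 highest values, as they did in 28.4% of all tested genes and in 0 of 24 primary cilium genes. Those libraries held the 3 lowest values in 8 of 24 primary cilium genes and in 5 of 38 motile genes, beside 2171 of 19375 tested genes. In the 3 libraries with few receptor counts (2 muscle and 1 epithelium) the motile median was 0.076, and without one library it ran from 0.16 (without epithelium replicate 2) to 1.97 (without muscle replicate 2). Whether the receptor counts and the motile gene counts in those libraries have one source was not tested. In 6 of 38 the groups did not overlap, beside 26.9% of all tested genes: 3 with muscle higher (16.4% of all) and 3 with epithelium higher (10.5% of all).

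**Figure D3:**
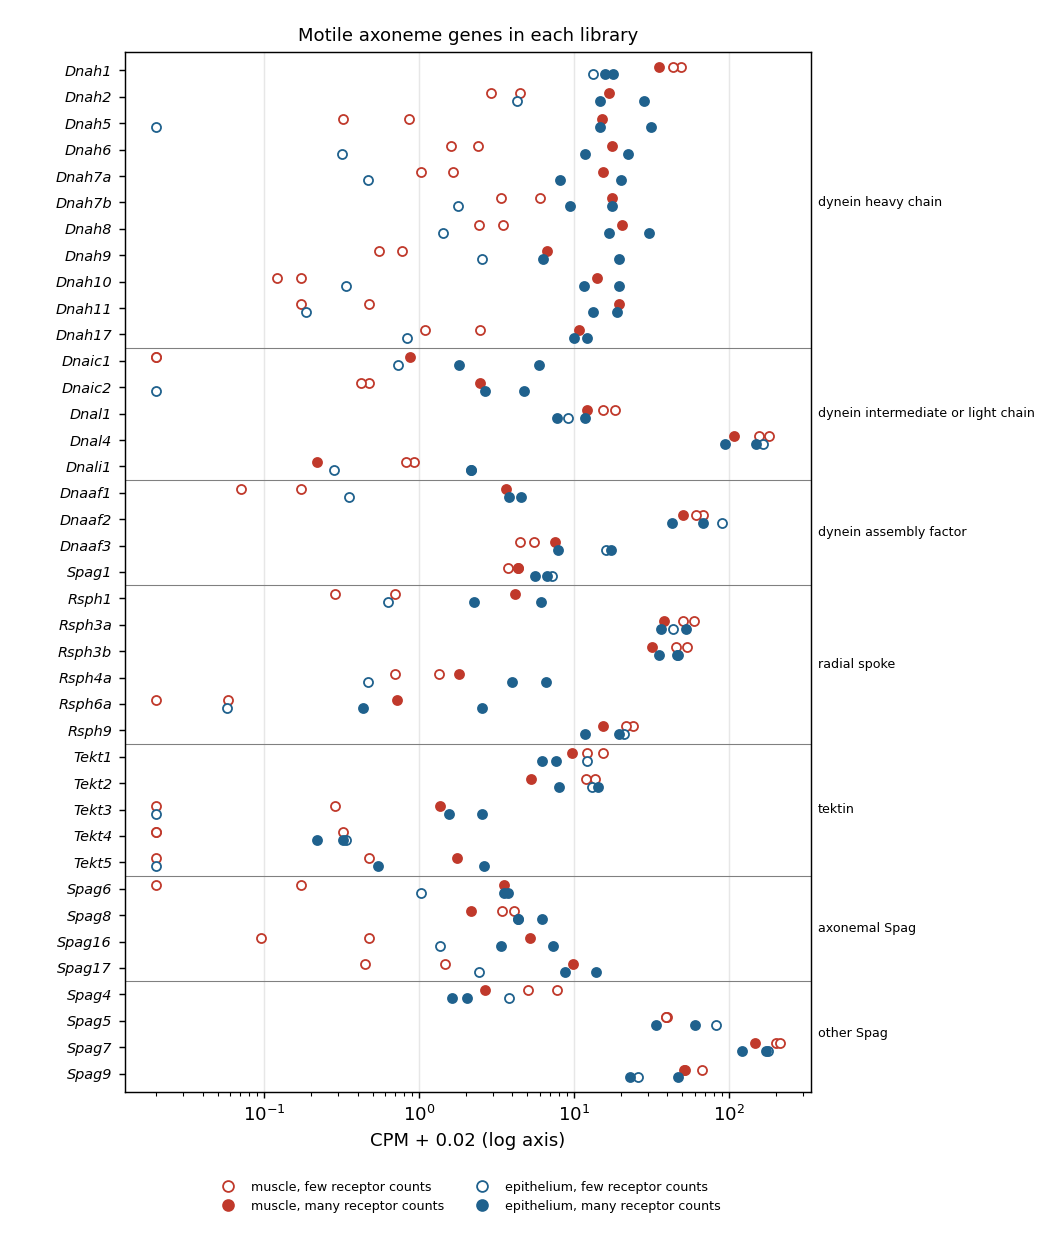
CPM of each motile axoneme member (rows) in the 6 libraries on a log axis with a small offset, so that 0 can be drawn. Filled points are the 3 libraries with many receptor counts, and for 21 members all filled points lie to the right of all open points.

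Axonemal dynein heavy chains are the motors of the beating cilium. Dnah1, an inner arm heavy chain at chr14:31260375-31323896 on the minus strand of GRCm38, had 49.3, 35.2 and 43.7 CPM in muscle and 13.2, 15.8 and 17.9 in epithelium, or 42.8 ± 7.11 against 15.6 ± 2.34 (SD, n = 3 each). All muscle libraries lay above all epithelial ones, with receptor counts many or few. The log2 fold change was -1.45 ± 0.25 (edgeR adjusted p = 0.0062), and it passed in 17 of 17 alternative fits, with adjusted p from 3.22e-06 to 0.0282. Among the 4 libraries that share a header identifier it was -1.50 (0.0144). An antisense gene, Gm35823, shares 551 bases (4.22%) of its exons, and unstranded counts cannot divide such bases.

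The other 10 dynein heavy chain genes had their 3 highest values in the libraries with many receptor counts. They had 6.30 to 31.4 CPM there and 0 to 5.96 CPM in the other libraries. Their log2 fold changes ran from 0.09 to 1.84, and none passed edgeR's test. Dnah5, the outer arm heavy chain often mutated in primary ciliary dyskinesia, had 0.836, 15.2 and 0.303 CPM in muscle and 0, 31.4 and 14.6 in epithelium, from 22, 305, 12, 0, 470 and 389 counts. Muscle replicate 2 exceeded epithelium replicates 1 and 3, and the log2 fold change of 1.50 ± 1.81 had an edgeR adjusted p of 0.832. Dnah11, the partner of Dnah5 in the proximal outer arm, had 0.456, 19.6 and 0.152 CPM in muscle and 0.167, 19.0 and 13.1 in epithelium. The step from few to many receptor counts again ran within each population, and the log2 fold change was 0.68 ± 1.70. Dnah9, the distal outer arm partner, had 0.760, 6.63 and 0.530 CPM against 2.53, 19.6 and 6.30. It differs from Dnah5 and Dnah11 in that epithelium replicate 1, with few receptor counts, lay above both muscle libraries of that kind. Its log2 fold change of 1.84 ± 1.12 had an edgeR adjusted p of 0.443, which was 0.0389 without muscle replicate 2. Dnah10 had a log2 fold change of 1.14 ± 1.73, and without muscle replicate 2 its edgeR adjusted p was 0.0427. Dnah7a and Dnah7b are near-identical copies whose reads can be divided unevenly.

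Per kilobase of coding sequence, the median level of these 10 genes in the libraries with many receptor counts was 1.26 CPM per kb (muscle replicate 2), 1.55 and 0.890 (epithelium replicates 2 and 3). The receptor genes had mean values of 0.492, 0.908 and 0.380 CPM per kb in the same libraries. In the libraries with few receptor counts the dynein median was 0.107 and 0.106 (muscle replicates 1 and 3) and 0.0487 (epithelium replicate 1), with receptor means of 0.0267, 0.0172 and 0.00344. The dynein median was lower in the 3 libraries with few receptor counts, a split that the receptor values themselves defined.

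**Figure D4:**
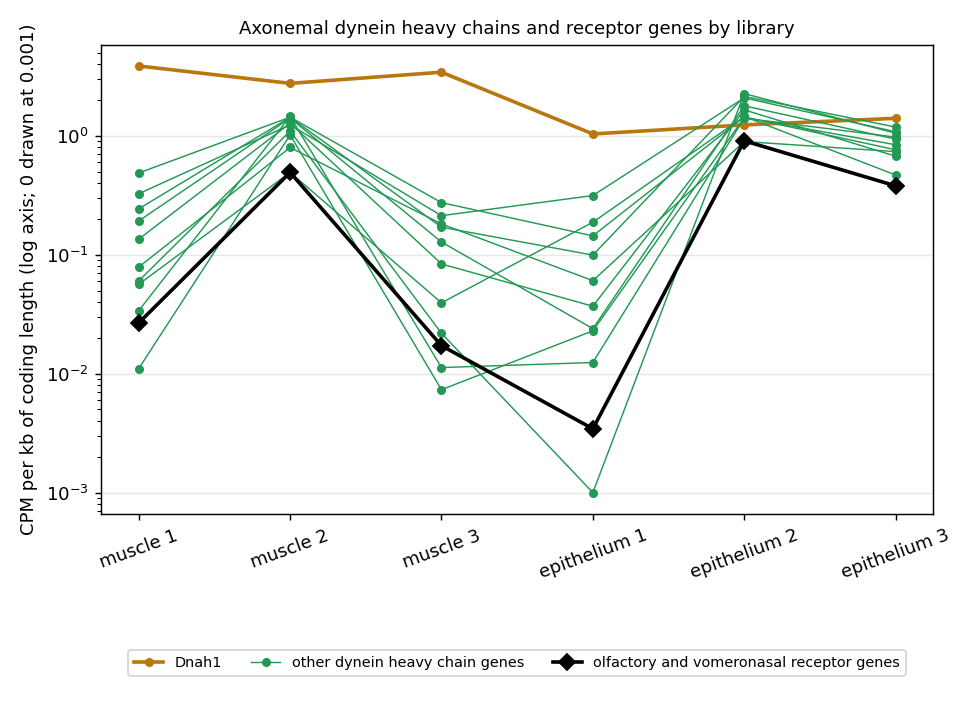
CPM per kb of coding sequence for the 11 dynein heavy chain genes in each library, on a log axis with 0 drawn at the lower edge, beside the mean of the receptor genes. The 10 genes other than Dnah1 are all higher in the 3 libraries with many receptor counts than in the other 3. The receptor genes are so by the definition of the split. Among the other 3 libraries the order of the 10 genes varies (Dnah9 and Dnah10 are highest in epithelium replicate 1). Dnah1 is higher in the muscle libraries.

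Dynein intermediate and light chains fell into 2 kinds. Dnaic1 and Dnaic2, the intermediate chains of the outer arm, were low: Dnaic1 had 0, 0.848 and 0 CPM in muscle and 0.706, 5.88 and 1.80 in epithelium, from 0, 17, 0, 38, 88 and 48 counts. Its log2 fold change of 3.31 ± 2.30 (edgeR adjusted p = 0.544) depends on the libraries at 0, and muscle replicate 2 lay above epithelium replicate 1. Dnaic2 had 0.456, 2.44 and 0.404 CPM against 0, 4.74 and 2.63 (1.15 ± 1.97). Dnal1 and Dnal4, light chains, had counts in every library. Dnal1 had 18.3, 12.0 and 15.4 CPM against 9.17, 11.7 and 7.77, without overlap (-0.68 ± 0.34, edgeR adjusted p = 0.305). Dnal4 had 181, 107 and 157 CPM against 166, 94.6 and 150, with its lowest value in replicate 2 of each population (-0.12 ± 0.30). Dnali1, an inner arm chain, had 0.911, 0.200 and 0.808 CPM against 0.260, 2.14 and 2.14.

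The dynein assembly factors fold the arms in the cytoplasm before they enter the cilium. Dnaaf3 had 4.48, 7.48 and 5.51 CPM in muscle and 16.1, 7.81 and 17.2 in epithelium. Every epithelial library was above every muscle library, with epithelium replicate 2 close to muscle replicate 2. The log2 fold change was 1.24 ± 0.45 with an edgeR adjusted p of 0.135, which was 0.0463 with DESeq2 and 0.0478 without epithelium replicate 2. Spag1, another assembly factor, had 4.33, 4.34 and 3.71 CPM against 7.15, 6.68 and 5.55, also without overlap (0.65 ± 0.59, edgeR adjusted p = 0.721). Dnaaf2 had 68.0, 50.4 and 61.2 CPM against 90.6, 43.1 and 68.4 (0.17 ± 0.30), and 32.7% of its exon bases are shared with an opposite-strand transcript. Dnaaf1 followed the receptor counts, with 0.152, 3.59 and 0.0505 CPM against 0.334, 4.54 and 3.79, and 20.7% of its exon bases are shared with Taf1c.

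Radial spokes pass signals from the central pair to the dynein arms. Rsph3a had 50.8, 38.0 and 59.7 CPM in muscle and 43.4, 36.3 and 52.9 in epithelium, and Rsph9 had 24.0, 15.5 and 21.5 against 21.1, 11.8 and 19.6. These genes overlapped between the groups, as did Rsph3b (-0.03 ± 0.26), the near-identical copy of Rsph3a. Rsph1 and Rsph4a, components of the spoke head, were low: Rsph1 had 0.266, 4.14 and 0.682 CPM against 0.613, 6.08 and 2.25. Rsph4a had 1.33, 1.80 and 0.682 CPM against 0.446, 6.61 and 3.94. Both had their highest values in the libraries with many receptor counts, as did Rsph6a, and neither passed edgeR's test (adjusted p 0.907 for Rsph1 and 0.678 for Rsph4a).

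Tektins are filament proteins inside the doublet microtubules. Tekt1 had 15.4, 9.73 and 12.1 CPM in muscle and 12.0, 6.14 and 7.58 in epithelium (-0.53 ± 0.40). Tekt2 had 13.6, 5.24 and 11.9 CPM against 13.1, 8.01 and 14.2 (0.20 ± 0.44), and 20.8% of its exon bases are shared with another transcript. Each population thus had both genes at several CPM and with overlapping groups. Tekt3 and Tekt5 reached at most 2.60 CPM, and Tekt4, with 8, 0, 0, 17, 3 and 8 counts, was too low to be tested. Of the Spag genes of the axoneme, Spag6, Spag16 and Spag17, parts of the central pair, were highest in the libraries with many receptor counts. Spag6 had 0.152, 3.49 and 0 CPM against 1.00, 3.74 and 3.53, Spag16 had 0.456, 5.14 and 0.0758 against 1.34, 7.35 and 3.38, and Spag17 had 1.44, 9.78 and 0.429 against 2.41, 13.9 and 8.74. For each of the 3, epithelium replicate 1 stood above muscle replicates 1 and 3, and none passed edgeR's test (adjusted p 0.895, 0.862 and 0.760). Spag8 had groups that did not overlap, epithelium higher, at a log2 fold change of 0.62 ± 0.76.

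Spag4, Spag5, Spag7 and Spag9 share the name but have other known roles, Spag5 in the mitotic spindle and Spag9 as a scaffold of JNK signalling. Spag9 had 51.8, 51.2 and 67.2 CPM in muscle and 26.0, 47.0 and 23.1 in epithelium, without overlap (-0.83 ± 0.31, edgeR adjusted p = 0.147). Without epithelium replicate 2, the highest of its group, the adjusted p was 0.0255. Spag5 had 40.1, 39.2 and 39.2 CPM against 82.8, 34.0 and 60.3 (0.58 ± 0.32, edgeR adjusted p = 0.365). Its adjusted p was 0.0282 in the 3 libraries with few receptor counts, where epithelium is a single library assumed to vary like the muscle ones. The 10 cell division genes summed to 1142, 1267 and 1376 CPM in muscle and to 1679, 945 and 1756 in epithelium, so epithelium replicate 2 was the lowest library in both, and the part of cell division in the Spag5 values was not tested. Spag7 had 202, 148 and 214 CPM against 180, 122 and 174 (-0.24 ± 0.26). Without these 4 genes, the motile median was 0.74 over 34 tested genes.

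At 1 CPM or more in all 3 libraries with few receptor counts were 19 motile members, among them Dnah1, Dnal1, Dnal4, Dnaaf2, Dnaaf3, Rsph9, Tekt1 and Tekt2. Below 1 CPM in all 3 were 12, among them Dnah5, Dnah10, Dnah11, Dnaic1, Dnaic2 and Rsph1. Outer arm and inner arm genes were in both sets.

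Other ciliary genes were taken from lists of names. Of 16 further IFT and BBSome genes, 1 was higher in epithelium and 0 in muscle, beside 4.11% and 6.58% of all tested genes, and 4 had an unadjusted p under 0.05, beside 21.7%. Traf3ip1, which encodes the IFT-B subunit IFT54, had 7.18, 12.8 and 10.1 CPM in muscle and 37.3, 36.1 and 37.6 in epithelium. Its groups were far apart, at 1.89 ± 0.28 (edgeR adjusted p = 0.00302, passing in 17 of 17 alternative fits), which is the opposite direction to Ift20. Wdr19, an IFT-A gene, had 25.1, 14.4 and 16.6 CPM against 23.4, 11.4 and 21.1. Of 9 motor genes, none passed edgeR's test, beside 10.7% of all tested genes. In that test 1 had an unadjusted p under 0.05, beside 21.7% of all, and DESeq2 called 1. Kif3a, a kinesin of outward transport, had 121, 78.9 and 128 CPM against 89.7, 63.5 and 83.8.

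Among transition zone genes, Ahi1 was higher in muscle, with 38.4, 31.0 and 37.7 CPM in muscle and 21.7, 17.7 and 20.1 in epithelium (-0.85 ± 0.23, edgeR adjusted p = 0.0467). The groups did not overlap, yet the call held in 6 of 17 alternative fits. The edgeR adjusted p was 0.161 and 0.168 without muscle replicates 1 and 3, and 0.114, 0.125 and 0.232 without epithelium replicates 1, 2 and 3. The 12 ciliary membrane genes gave none in edgeR (3 had an unadjusted p under 0.05, and DESeq2 called 2), and Arl13b had 37.1, 21.8 and 39.3 CPM against 27.2, 25.9 and 24.0. The 14 basal body genes gave none in edgeR either (1 had an unadjusted p under 0.05, and DESeq2 called 2). Over all tested genes, edgeR called 10.7%, and 21.7% had an unadjusted p under 0.05. Of 7 cilium disassembly genes, 1 was higher in epithelium and 0 in muscle, beside 4.11% and 6.58% of all tested genes. It was Nedd9, a scaffold of Aurora A, with 64.1, 84.8 and 73.1 CPM against 232, 221 and 209 (1.58 ± 0.23, edgeR adjusted p = 0.00278).

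The list of multiciliogenesis regulators holds factors of the multiciliated programme and genes of centriole amplification. Of 12, 3 were higher in epithelium and 0 in muscle, beside 4.11% and 6.58% of all tested genes. An unadjusted p under 0.05 in edgeR's test was found for 4, beside 21.7% of all. Ccno, a cyclin of centriole amplification, had 0.874, 0.798 and 1.87 CPM in muscle and 106, 57.0 and 134 in epithelium (6.35 ± 0.50, edgeR adjusted p = 0.000193, passing in 17 of 17 alternative fits). Mcidas, which starts the multiciliated programme, had 0.228, 3.04 and 0.152 CPM against 22.0, 18.8 and 28.0. Its log2 fold change of 4.37 ± 1.05 had an edgeR adjusted p of 0.0293 and passed in 8 of 17 fits. It missed without muscle replicate 1 (0.0909) and without epithelium replicate 1 (0.093), 2 (0.0661) or 3 (0.102), although its groups did not overlap. Rfx3, an X-box factor, had 20.2, 18.8 and 21.9 CPM against 61.5, 36.0 and 44.8 (1.23 ± 0.26, edgeR adjusted p = 0.0179), and missed without muscle replicate 1 (0.0657), muscle replicate 3 (0.0521) or epithelium replicate 1 (0.0812). For these 3 genes the epithelial libraries with few and with many receptor counts were all above every muscle library.

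Foxj1, the master regulator of motile cilia, was low everywhere, with 0.228, 0.998 and 0.303 CPM in muscle and 0.241, 0.534 and 1.20 in epithelium (0.37 ± 1.86, edgeR adjusted p = 0.965). In 14 of 32 other tested motile cilium genes the libraries with many receptor counts held the 3 highest values, as they did in 28.4% of all tested genes. In edgeR's test 2 of the 32 had an unadjusted p under 0.05, beside 21.7% of all. Higher in muscle were 0 and higher in epithelium was 1, beside 6.58% and 4.11% of all tested genes. Ccdc40, a ruler of axonemal repeats, was that gene, with 5.85, 2.14 and 4.42 CPM against 19.7, 19.1 and 13.2 (2.06 ± 0.45, edgeR adjusted p = 0.0196; 0.0659 without muscle replicate 3 and 0.0626 without epithelium replicate 1). Its partner Ccdc39 had 6.68, 6.04 and 4.72 CPM against 3.47, 3.01 and 7.05, with overlap (edgeR adjusted p = 0.907). Hydin, of the central pair, had 0.987, 21.1 and 1.79 CPM against 0.0371, 23.7 and 15.9, the pattern of the dynein heavy chains. The 11 multiciliated cell markers, which include Ccno, Mcidas and Ccdc40, summed to 65.6, 79.4 and 130 CPM in muscle and to 212, 170 and 252 in epithelium. Of these markers 3 of 10 tested were higher in epithelium, beside 4.11% of all tested genes. They were Ccno, Mcidas and Ccdc40, already counted above, and none of the other markers passed edgeR's test. Ccno alone gave 106, 57.0 and 134 CPM of the epithelial sums, against 0.874, 0.798 and 1.87 in muscle. In epithelium replicate 1, 3 of 11 markers were at 0.

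Markers of other cell types also varied across the libraries. The 7 immune genes summed to 2.81, 48.0 and 14.9 CPM in muscle and to 3.81, 41.1 and 21.5 in epithelium, with 3 of 7 at 0 in muscle replicate 1 and 2 of 7 in epithelium replicate 1. The 6 endothelial genes summed to 39.2, 50.7 and 58.2 CPM against 1.24, 50.2 and 17.5, and the 7 neural and glial genes to 34.7, 57.3 and 32.3 against 28.8, 64.1 and 32.4. The 4 mesothelial genes summed to 2.05, 16.4 and 2.30 CPM against 2.69, 16.4 and 10.5. Of these, 4 of 4 had their 3 highest values in the libraries with many receptor counts, beside 28.4% of all tested genes. The same held for 2 of 7 immune, 1 of 6 endothelial and 3 of 7 neural and glial genes. The 6 cartilage genes had another order, at 584, 1077 and 1109 CPM in muscle and 401, 446 and 217 in epithelium. Of these genes 2 were higher in muscle, beside 6.58% of all tested genes. The 7 erythroid genes summed to 8.36, 12.4 and 36.5 CPM against 6.26, 22.7 and 18.3. In the immune, the neural and the mesothelial list, replicate 2 was the highest library of each population, as it was for Dnah5, Dnah11 and Hydin. Their part in the motile gene values was not tested.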

How the data were processed

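RNA was measured in 6 libraries, 3 of muscle and 3 of epithelium, assigned by title. The authors deposited whole-number counts per gene symbol. The submitters' processing notes name Trim Galore, Bowtie2, Cufflinks and DESeq and the build mm10, without their roles. The counting program and annotation are not given in the sources used here. Per the labels' protocols, SMART-Seq v4 and Nextera XT were used, kits that in standard use count PCR copies and keep no strand. Of counts from 1 to 19, 73.8% to 79.6% per library were even. All rows name a gene.

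Genes were filtered with filterByExpr by group, TMM-scaled and compared in edgeR 4.0.16 under R 4.3.3 (quasi-likelihood, two-sided, robust, no covariate), with Benjamini-Hochberg adjustment over 19375 genes and a threshold of 0.05. SE came from the test statistic, and intervals are pointwise. CPM uses TMM-scaled totals. Coding lengths from GENCODE M21 (GRCm38), which leave out UTRs, were found for 62 of 63 members. DESeq2 1.42.0 and limma 3.58.1 (voom) were alternatives, with other scalings, filters, a replicate block, a receptor covariate, header identifiers and library subsets. On simulated counts the fit recovered the direction of large known changes. Every simulated gene had the same dispersion, and the libraries lacked the differences in receptor counts. The simulation therefore cannot show how the fit handles those differences. A single gene's exact permutation test, at 3 against 3, cannot go below 0.10, so p-values come from the model.

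Values were named for members past the threshold, for the 5 next by adjusted p, for fixed lists, and for companion genes past the threshold with 6 fixed ones. A companion result is not reported here. The members and lists were chosen with earlier results of these data known.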

Additional observations from a re-analysis of the deposited data

How the results depend on the processing

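Of 1037 pairs of a member and an alternative fit, 1021 kept their side of the threshold, 3 lost it (Ift20), 13 gained it and 0 reversed. A reversal was counted only where either fit passed the threshold or both log2 fold changes were at least their SE. In 107 of the pairs that kept their side, the sign changed without meeting this rule. Dnah5, for instance, ran from -7.43 to 4.75 over the alternative fits. Genes called over the whole table numbered 2071, against 3539 with DESeq2, 3178 with the header identifier (one for both replicates 2, another for the rest) as a factor and 1169 to 2573 without one library (1323 without muscle replicate 1, 1169 without epithelium replicate 3). Scaling by library size alone turned the split from 797 higher in epithelium and 1274 in muscle to 1441 and 1047. Primary cilium calls were 2 with the header identifier as a factor, 2 in the 4 libraries numbered 1 and 3, 0 in the 3 libraries with few receptor counts and 0 to 2 without one library (2 without muscle replicate 2, 0 without muscle replicate 3 or epithelium replicate 3). Motile axoneme calls were 2 with DESeq2, 2 with the header identifier as a factor, 4 in the libraries numbered 1 and 3, 2 in those with few receptor counts and 1 to 3 without one library (3 without muscle replicate 2 or epithelium replicate 2). The primary cilium median was 0.015 with library size alone, -0.016 in the libraries with few receptor counts and -0.42 to -0.066 without one library; the motile median, 0.67, was 0.13 with limma-voom, 0.16 with the receptor covariate, 1.16 with the header identifier as a factor, 1.11 in the libraries numbered 1 and 3, 0.076 in those with few receptor counts and 0.16 to 1.97 without one library. The cause of these shifts was not tested. With the replicate block, calls were 2418 genes in all, 1 primary cilium gene and 1 motile gene, and the medians were -0.23 and 0.62. Libraries of the same number deviated from their group means with correlations of 0.57, 0.66 and -0.42 over 19375 genes. Muscle replicate 3 and epithelium replicate 1, of unlike number, also reached 0.66. Over 4118 genes with an average log2 CPM of 6 or more, the same-number values were 0.18, 0.16 and -0.18. Such correlations cannot settle whether the numbers pair the libraries, and the labels do not say. The low counts of many motile genes, 12 of 39 under 1 CPM in 3 libraries, limit what could be detected.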
